A study of Homo sapiens with 6 samples.

Results

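With less PRPF19, the gene for the splicing factor Prp19, in SK-N-BE(2) cells, 45 of the 7317 protein-coding genes whose mean level was 5 FPKM or more were higher in every one of the 3 siPrp19 samples than in the NC sample of the same replicate number. These 45 genes were selected by their values in this contrast. Each was protein-coding in GENCODE 29, had a log2(FPKM + 0.1) at least 0.2 higher with siPrp19 in each of the 3 pairs, and a mean difference of at least 0.3. FPKM, fragments per kilobase of exon scaled for the depth of the library, is a level per gene length. SK-N-BE(2) is an established human neuroblastoma line. All 6 samples came from this line, 3 transfected with a negative control siRNA (NC) and 3 with an siRNA against Prp19 (siPrp19). The labels give 72 h of transfection, whereas the methods of the study give 48 h for RNA sequencing, so the time at harvest is not settled. The methods describe transient transfection of a bulk culture with the first of the siRNAs examined. There was no rescue and no second siRNA among these samples, so a change due to the siRNA and a change due to loss of Prp19 cannot be told apart.

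Prp19 is a core component of a splicing complex named after it, which joins the spliceosome as it becomes active and holds the U6 and U5 snRNAs in place while introns are removed, and it is also a ubiquitin ligase. Neuroblastoma is a childhood tumor of the sympathetic nervous system, and lines such as SK-N-BE(2) express genes of noradrenergic neurons, among them enzymes and transporters for catecholamines. The genes described here were grouped by known role only after they had been selected.

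PRPF19 itself was at 53.1, 53.1 and 64.9 FPKM in NC replicates 1, 2 and 3 and at 21.8, 28.5 and 33.6 FPKM in the siPrp19 samples. The knockdown therefore left 41.0%, 53.6% and 51.7% of the NC level in the 3 pairs, with group means of 57.0 ± 6.83 and 27.9 ± 5.91 FPKM (SD, n = 3). The samples held between 19058781 and 24181789 reads on genes, with each siPrp19 library deeper than each NC library. All 9 markers of adrenergic neuroblasts were above 1 FPKM, and their summed level was 2102 to 2225 FPKM in NC and 1970 to 2559 in siPrp19. All 5 fibroblast markers were also above 1 FPKM, with a summed level of 101 to 121 FPKM in NC and 93.7 to 119 in siPrp19, whereas none of the leukocyte or endothelial markers reached 1 FPKM. The Schwann cell markers SOX10 and ERBB3 were under 0.1 FPKM. In bulk RNA, a different number of cells of one kind and a different amount of RNA per cell cannot be told apart.

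Of the genes tested on the rule, 0.615% were higher in all 3 pairs, and the same rule with the sign turned held for 137 genes, or 1.87%. Since the rule used this contrast, no test was made on the members' differences. As a background, limma without a block called none of 14462 genes at a false discovery rate of 0.05, with 225 genes at an unadjusted p below 0.05. The replicate numbers pair the samples, and with the replicate as a block limma again called none, with 2265 genes at an unadjusted p below 0.05. With the block and only genes at 5 FPKM or more it called 124 genes, 34 higher and 90 lower. Voom on the recovered reads called none without the block, with 186 genes at an unadjusted p below 0.05, and 964 with it. The word higher in the following refers to the rule and not to a call by limma.

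The differences were small. The mean difference of the 45 genes ranged from 0.30 to 0.58 on the log2 scale, or 1.23-fold to 1.5-fold, with a median of 0.36, while the median over all 7317 genes was -0.01. In pairs 1, 2 and 3 the members' median differences were 0.39, 0.34 and 0.35, against -0.04, 0.00 and 0.01 for all genes that passed the filters. Pair 1 held the largest of the 3 differences for 17 genes, pair 2 for 11 and pair 3 for 17. In 20 of the 45 genes every siPrp19 sample was also above every NC sample, as it was in 2.27% of all genes tested. In the other 25 the lowest siPrp19 sample was not above the highest NC sample. The plot of levels by sample shows both kinds.

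**Figure D1:**
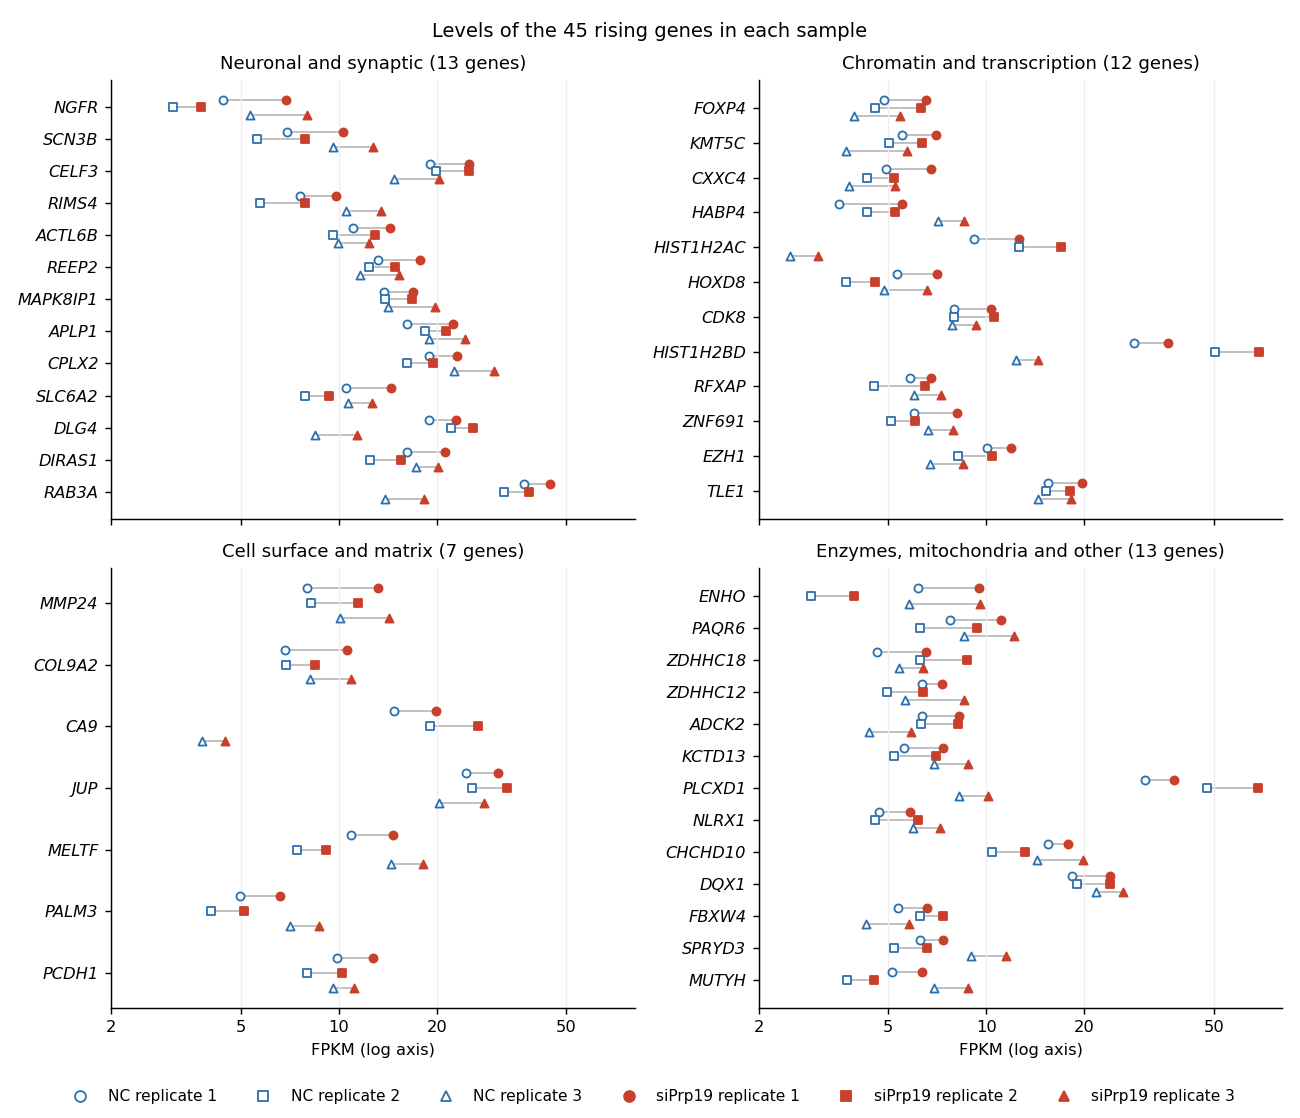
FPKM (log axis) of the 45 genes in each sample, in 4 groups by known role. Open blue symbols are NC, filled red symbols siPrp19, and each grey line joins the 2 samples of one replicate number; every line runs to the right, since the genes were selected for this, and 20 genes have all red symbols to the right of all blue ones.

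The genes next to the limits of the rule differed little from each other. TLE1 (mean difference 0.304), MUTYH and SPRYD3 (both 0.306) stood just inside the limit on the mean, and BAHD1 (0.294), PMS2 and C12orf10 (both 0.293) just outside it. In the smallest pair difference, RFXAP and APLP1 (both 0.206) and ZDHHC12 (0.209) stood just inside, and TCEA2 and FOXO6 (both 0.199) and MAPRE3 (0.195) just outside. On the level, CXXC4 at 5.03, FOXP4 at 5.25 and NGFR at 5.26 FPKM were just inside, and MAP3K10 at 4.93, BLVRB at 4.83 and RAB3C at 4.62 FPKM just outside. A further 30 genes had a mean difference of at least 0.3 but missed the limit in 1 or more pairs, and 27 met the limit in each pair with a lower mean.

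The first group by role held 13 genes known from neurons and synapses, with a median difference of 0.35 and a median level of 15.9 FPKM, the highest of the 4 groups. In 5 of the 13 the groups did not overlap. The 3 strongest differences in the group were those of a receptor, a channel subunit and an RNA-binding protein. NGFR, the neurotrophin receptor without a kinase domain, was at 4.42, 3.11 and 5.34 FPKM in NC and 6.90, 3.77 and 8.0 in siPrp19 (mean difference 0.49 ± 0.19, SD over 3 pairs). Both samples of replicate 2 were the lowest of their groups, so the groups overlapped. SCN3B, an auxiliary subunit of voltage-gated sodium channels, was at 6.95, 5.62 and 9.58 FPKM in NC and 10.3, 7.87 and 12.7 in siPrp19 (0.48 ± 0.08). CELF3, an RNA-binding protein that regulates splicing in neurons, was at 19.0, 19.8 and 14.8 FPKM in NC and 25.1, 25.1 and 20.3 in siPrp19 (0.40 ± 0.06), without overlap.

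Several of these genes encode proteins of the presynaptic terminal. RAB3A, the small GTPase of synaptic vesicles, had the highest level in the group, with 37.0, 32.3 and 13.8 FPKM in NC and 44.7, 38.4 and 18.3 in siPrp19. CPLX2, a complexin that binds the assembled SNARE complex, was at 19.0, 16.2 and 22.7 FPKM in NC and 23.1, 19.5 and 29.9 in siPrp19. RIMS4, a small member of the RIM family of the active zone, was at 7.62, 5.74 and 10.5 FPKM in NC and 9.83, 7.87 and 13.5 in siPrp19. These 3 genes overlapped between the groups, and replicate 3 was the lowest for RAB3A but the highest for CPLX2 and RIMS4. On the postsynaptic side, DLG4, a scaffold protein of excitatory synapses, was at 18.9, 22.1 and 8.47 FPKM in NC and 22.9, 25.9 and 11.4 in siPrp19. SLC6A2, the noradrenaline transporter, was at 10.5, 7.86 and 10.7 FPKM in NC and 14.5, 9.33 and 12.6 in siPrp19 (0.31 ± 0.13).

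Most of the other neuronal members varied little between replicates. APLP1, a relative of the amyloid precursor protein, was at 16.3, 18.5 and 18.9 FPKM in NC and 22.4, 21.3 and 24.4 in siPrp19. MAPK8IP1, a scaffold of JNK signaling, was at 13.8, 13.8 and 14.2 FPKM in NC and 16.9, 16.8 and 19.8 in siPrp19. ACTL6B, the neuronal actin-like subunit of the BAF chromatin remodelling complex, was at 11.1, 9.63 and 9.95 FPKM in NC and 14.4, 13 and 12.4 in siPrp19. The groups did not overlap in these 3 genes, nor in REEP2, which shapes the endoplasmic reticulum (0.36 ± 0.09). DIRAS1, a small GTPase of the Ras family, was at 16.2, 12.4 and 17.3 FPKM in NC and 21.3, 15.6 and 20.3 in siPrp19, with overlap.

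A list of 42 genes of neuron projections and synapses gives the wider view. RAB3A, DLG4 and CPLX2 met the rule, 3 other genes of the list (SYT1, DPYSL3 and ELAVL4) met it with the sign turned, and the median difference was 0.09, against -0.01 over all genes. Within this list NEFM, a neurofilament subunit, had a larger mean difference (0.41) than those 3, and DCX (0.36) and NRXN2 (0.32) were also above 0.3 without meeting the limit in each pair. ELAVL4, a neuronal RNA-binding protein, had the lowest mean difference of the list (-0.51). Of 25 genes of the adrenergic neuroblast list, SLC6A2 alone met the rule, 2 met it with the sign turned, and the median difference was 0.02. RAB3A, DLG4, CPLX2 and SLC6A2 no longer met the rule after the centring on GC content described further on, with mean differences of 0.26, 0.26, 0.28 and 0.30.

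Chromatin and transcription made up the second group, with 12 genes, a median difference of 0.36 and a median level of 6.39 FPKM. Both groups of samples were apart in 6 of the 12. FOXP4, a forkhead transcription factor, was at 4.84, 4.56 and 3.92 FPKM in NC and 6.51, 6.28 and 5.42 in siPrp19 (0.44 ± 0.02), and its 3 pair differences lay between 0.42 and 0.46. KMT5C, a methyltransferase for histone H4, was at 5.52, 5.02 and 3.72 FPKM in NC and 7.02, 6.35 and 5.72 in siPrp19 (0.43 ± 0.16). CXXC4, a zinc finger protein that restrains Wnt signaling, was at 4.92, 4.29 and 3.78 FPKM in NC and 6.75, 5.21 and 5.24 in siPrp19 (0.39 ± 0.11). In all 3 genes each siPrp19 sample was above each NC sample.

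The members with the smallest range between replicates were also in this group. CDK8, the kinase of the Mediator complex, was at 7.94, 7.93 and 7.86 FPKM in NC and 10.4, 10.6 and 9.32 in siPrp19. TLE1, a co-repressor of the Groucho family, was at 15.4, 15.2 and 14.4 FPKM in NC and 19.6, 18.0 and 18.2 in siPrp19. Their levels, averaged over both samples of a pair, ranged over only 0.10 on the log2 scale between the 3 replicates, against a median range of 0.43 over the 45 genes and 0.38 over all genes that passed the filters. EZH1, a histone H3 methyltransferase of the Polycomb complex, was at 10.0, 8.19 and 6.71 FPKM in NC and 11.9, 10.4 and 8.47 in siPrp19, with overlap. HOXD8, a homeobox factor, was at 5.32, 3.72 and 4.85 FPKM in NC and 7.05, 4.54 and 6.58 in siPrp19. The remaining members were RFXAP, part of the factor that drives MHC class II genes, the zinc finger gene ZNF691 and the RNA-binding protein HABP4, with mean differences of 0.33, 0.31 and 0.39.

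HIST1H2AC and HIST1H2BD encode a histone H2A and a histone H2B, and they lie 19029 bases apart on chromosome 6 with no other gene that passed the filters between them. HIST1H2AC was at 9.15, 12.6 and 2.49 FPKM in NC and 12.6, 17.0 and 3.04 in siPrp19 (0.39 ± 0.09). HIST1H2BD was at 28.3, 50.5 and 12.4 FPKM in NC and 36.2, 68.7 and 14.4 in siPrp19 (0.34 ± 0.11). Both were lowest in replicate 3, with either siRNA. Of 71 protein-coding replication-dependent histone genes found, only 6 passed the filters. Of these 6, HIST1H2AC and HIST1H2BD met the rule, as did 0.615% of all genes tested, and none met it with the sign turned. All 6 had a mean difference above 0. Their median of 0.30 includes the 2 genes that were selected for being higher. HIST3H2A had the largest mean difference of the 6 (0.48) but missed the limit in pair 2 (0.19). HIST1H1C, HIST1H2BK and HIST1H4H were at 0.27, 0.20 and 0.11. Replication-dependent histone transcripts mostly lack a poly(A) tail, so these values rest on the transcripts that the library preparation took up.

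The stretch upstream of a gene is where the general transcription machinery is placed, and it was available from RefSeq (build GRCh38.p14) for 37 of the 45 members. Only the 2 histone genes held the letters TATAAA within 250 bases upstream of the RefSeq start. They are shown beside those of ENHO, MMP24 and PAQR6, the genes with the largest mean differences, which have none. Each line gives 150 bases 5′ to 3′ on the strand of the gene, in lower case with the letters of any motif searched in capitals on either strand. The stretch for ENHO, MMP24 and PAQR6 ends at the GENCODE gene boundary, and that for the histone genes at the RefSeq start.
HIST1H2AC: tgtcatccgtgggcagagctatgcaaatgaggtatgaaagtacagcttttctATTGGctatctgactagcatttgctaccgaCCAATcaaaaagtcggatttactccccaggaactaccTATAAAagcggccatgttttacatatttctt
HIST1H2BD: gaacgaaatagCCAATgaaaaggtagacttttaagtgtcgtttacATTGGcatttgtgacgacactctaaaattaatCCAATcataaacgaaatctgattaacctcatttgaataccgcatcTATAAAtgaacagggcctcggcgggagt
ENHO: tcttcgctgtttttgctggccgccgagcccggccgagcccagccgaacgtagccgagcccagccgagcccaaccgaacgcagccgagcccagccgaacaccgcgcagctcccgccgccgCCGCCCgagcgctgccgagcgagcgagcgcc
MMP24: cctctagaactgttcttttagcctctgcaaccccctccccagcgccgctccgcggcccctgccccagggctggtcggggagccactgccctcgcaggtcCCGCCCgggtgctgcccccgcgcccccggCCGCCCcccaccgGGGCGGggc
PAQR6: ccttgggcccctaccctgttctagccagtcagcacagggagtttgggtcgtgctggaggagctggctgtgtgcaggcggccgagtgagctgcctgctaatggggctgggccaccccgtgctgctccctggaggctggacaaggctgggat
The stretches are chr6:26124022-26124171 and chr6:26157971-26158120 on the plus strand, chr9:34523042-34523191 on the minus strand, chr20:35226504-35226653 on the plus strand and chr1:156248118-156248267 on the minus strand. The TATA box begins 31 bases before the start of HIST1H2AC and 28 before that of HIST1H2BD, and both have CCAAT on each strand. GC content was 41.3% and 38.0% in the histone stretches, against 75.3%, 78.0% and 66.0% in those of ENHO, MMP24 and PAQR6. MMP24 had 3 copies of the GC box within the stretch and ENHO 1, whereas no motif searched was found in that of PAQR6.

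Over the 37 members, the share of promoters with each motif was near that of the 6030 genes that passed the filters and had a promoter. The motifs were searched as exact letters on both strands of the 250 bases. GGGCGG, the GC box, was in 26 members (70.3%, against 70.9%), CCAAT in 15 (40.5%, against 36.1%) and TATAAA in 2 (5.41%, against 4.66%). The E-box CACGTG was in 3 (8.11%, against 9.88%). ACGTG, the core of the hypoxia response element, which is contained in the E-box, was in 12 (32.4%, against 25.3%). The cAMP response element TGACGTCA was in none, against 3.60%. Over all 35116 RefSeq promoters of the same length the shares were 42.6%, 32.0%, 10.7%, 6.34%, 18.5% and 1.65% in the order given. The median GC content was 67.6% in the members' promoters and 65.6% in those of all genes that passed the filters.

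The cell surface and matrix group held 7 genes, with a median difference of 0.37 and 4 genes without overlap. MMP24, a membrane-type matrix metalloproteinase expressed in the nervous system, was at 7.98, 8.21 and 10.1 FPKM in NC and 13.2, 11.5 and 14.3 in siPrp19 (0.57 ± 0.14). COL9A2, a chain of collagen IX, was at 6.85, 6.88 and 8.18 FPKM in NC and 10.6, 8.48 and 10.9 in siPrp19 (0.44 ± 0.16). JUP, the junction protein plakoglobin, was at 24.7, 25.8 and 20.4 FPKM in NC and 30.8, 32.8 and 28.0 in siPrp19 (0.37 ± 0.07). These 3 did not overlap between the groups. Neither did PCDH1, a protocadherin, at 9.90, 7.98 and 9.58 FPKM in NC and 12.7, 10.2 and 11.2 in siPrp19. MELTF, the iron-binding melanotransferrin, and the paralemmin PALM3 had mean differences of 0.35 and 0.34, and both were lowest in replicate 2 and highest in replicate 3.

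CA9, carbonic anhydrase IX, is a cell surface enzyme and a classical target of hypoxia-inducible factor. It was at 14.7, 19.0 and 3.81 FPKM in NC and 19.9, 26.7 and 4.49 in siPrp19 (0.38 ± 0.14), so that the levels of replicate 3 were far below the others with either siRNA. All 22 genes of the hypoxia list had their lowest level in replicate 3, against 38.1% of all genes that passed the filters. This was not particular to hypoxia genes. Replicate 3 was also lowest for 76 of 80 cytosolic ribosomal proteins, 19 of 21 glycolysis genes and 20 of 23 cholesterol genes. It was lowest for only 3 of 39 proteasome subunits. CA9 was the only one of the 22 that met the rule, 6 of the 22 had a mean difference above 0, and the median was -0.04. VEGFA, for example, was at 158, 241 and 20.2 FPKM in NC and 126, 222 and 19.6 in siPrp19 (mean difference -0.16). The 30 bases before the RefSeq start of CA9 (chr9:35673898-35673927, plus strand, GRCh38.p14) are shown because they hold the core of the hypoxia response element, in capitals on the opposite strand after a CCAAT.
CA9: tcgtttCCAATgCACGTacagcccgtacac
The core begins 18 bases and CCAAT 24 bases before the RefSeq start. In GENCODE 29 these bases lie within an annotated CA9 transcript that starts 72 bases upstream of the RefSeq start, and 38.5% of the CA9 exons overlap exons of ARHGEF39 on the other strand.

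The last group held 13 genes of metabolism, mitochondria, ubiquitin conjugation and other functions, with a median difference of 0.37 and 5 genes without overlap. ENHO, the gene for the secreted peptide adropin, had the largest mean difference of all 45, with 6.14, 2.89 and 5.79 FPKM in NC and 9.48, 3.91 and 9.54 in siPrp19 (0.58 ± 0.14). Its value in NC replicate 2 rested on 55 reads, the fewest of any member, and that replicate was low with both siRNAs. PAQR6, a membrane receptor of the progestin and adipoQ family, was at 7.74, 6.26 and 8.52 FPKM in NC and 11.1, 9.35 and 12.1 in siPrp19 (0.53 ± 0.04), with no overlap. ZDHHC18 and ZDHHC12 both encode palmitoyltransferases, which attach fatty acid to proteins. ZDHHC18 was at 4.60, 6.25 and 5.39 FPKM in NC and 6.54, 8.73 and 6.38 in siPrp19. ZDHHC12 was at 6.32, 4.94 and 5.61 FPKM in NC and 7.32, 6.41 and 8.51 in siPrp19. In both of them the groups were apart.

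DQX1, a putative RNA helicase of the DEAQ-box kind, was at 18.4, 19.0 and 21.7 FPKM in NC and 24.0, 23.9 and 26.2 in siPrp19 (0.33 ± 0.06), again without overlap. CHCHD10, a protein of the mitochondrial intermembrane space, was at 15.4, 10.4 and 14.3 FPKM in NC and 17.8, 13.1 and 19.8 in siPrp19. The other mitochondrial members were ADCK2, an atypical kinase, and NLRX1, a NOD-like receptor, with mean differences of 0.39 and 0.34. MUTYH, the DNA glycosylase that removes adenine paired with oxidized guanine, was at 5.13, 3.73 and 6.88 FPKM in NC and 6.36, 4.50 and 8.79 in siPrp19. KCTD13, an adaptor of a cullin ubiquitin ligase, and FBXW4, an F-box protein, had mean differences of 0.39 and 0.32, and SPRYD3 had 0.31. PLCXD1, which has a phospholipase C domain, was at 30.6, 47.6 and 8.23 FPKM in NC and 37.7, 68.2 and 10.1 in siPrp19. The siPrp19 value of PLCXD1 in replicate 3 was below the NC value in replicates 1 and 2.

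The differences between replicates were wide for some members. In 7 of the 45 genes (15.6%) the pair level ranged over at least 1 on the log2 scale between replicates, as it did in 6.63% of all genes that passed the filters. Replicate 3 was lowest for 6 of these, namely PLCXD1, CA9, HIST1H2AC, HIST1H2BD, RAB3A and DLG4, with ranges of 2.63, 2.42, 2.37, 2.13, 1.35 and 1.28. ENHO, with 1.16, was lowest in replicate 2. Over the 45 genes the lowest level was in replicate 1 for 5, in replicate 2 for 22 and in replicate 3 for 18, whereas over all genes the shares were 30.9%, 31.0% and 38.1%. The highest level was in replicate 1 for 13, in replicate 2 for 10 and in replicate 3 for 22, against 13.2%, 45.2% and 41.6%. The part of these differences between replicates in the knockdown differences was not tested.

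**Figure D2:**
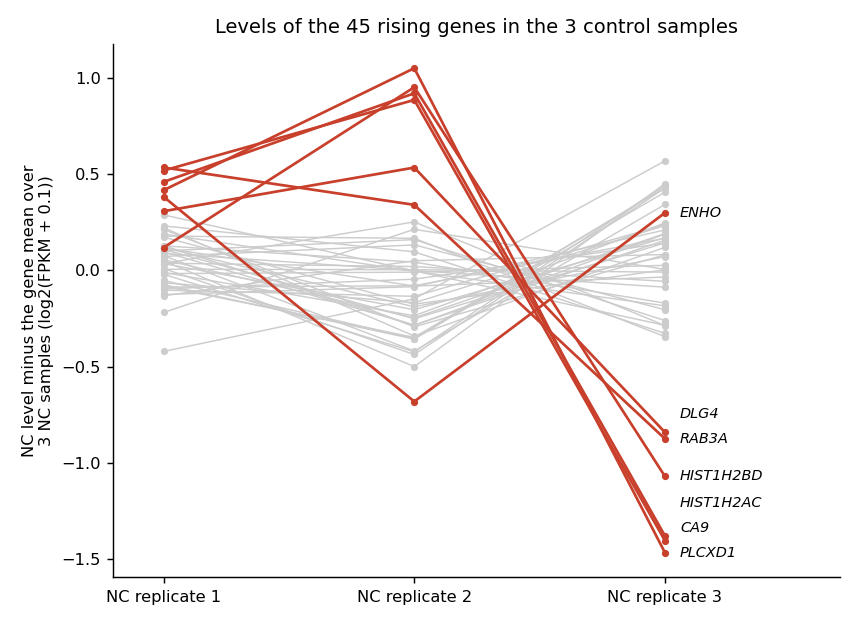
Level of each of the 45 genes in the 3 NC samples, as log2(FPKM + 0.1) minus the mean of the gene over these samples; lines only join values of 1 gene, and replicates have no order. The 7 genes in red had pair levels that ranged over at least 1 log2 unit; 6 of them are lowest in NC replicate 3 and ENHO in NC replicate 2.

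Members were expressed at low to middle levels. Their median mean level was 9.18 FPKM, from 5.03 for CXXC4 to 35.1 for HIST1H2BD, against 12.5 FPKM for all genes that passed the filters and 10.7 for the 137 genes that met the rule with the sign turned. The level was below the median of all genes in 30 of the 45 (66.7%). These are descriptions, since the rule used the level and the mean includes the siPrp19 samples, in which members are high by selection. In 7 of the 45 the NC mean was below 5 FPKM (ENHO, NGFR, FOXP4, KMT5C, CXXC4, HABP4 and HOXD8), so that they reached the limit only with the siPrp19 samples, as against 1.01% of all genes with such an NC mean. In NC alone the median level was 7.97 FPKM for the members and 12.6 for all genes. The mean level over the 6 samples was below 10 FPKM in 25 members (55.6%), against 38.3% of all genes and 43.1% of the lower genes. By the same mean only 3 members, HIST1H2BD, PLCXD1 and RAB3A, were at 30 FPKM or more, whereas 17.5% of all genes were. For 42 of the 45 genes whole reads could be recovered from the deposited values, and the fewest reads of a gene in any sample had a median of 456.5 over these genes. Counting of reads alone gave the least precise pair difference of a gene a standard error of 0.09 on the log2 scale in the median over genes, and 0.25 at most, for ENHO.

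**Figure D3:**
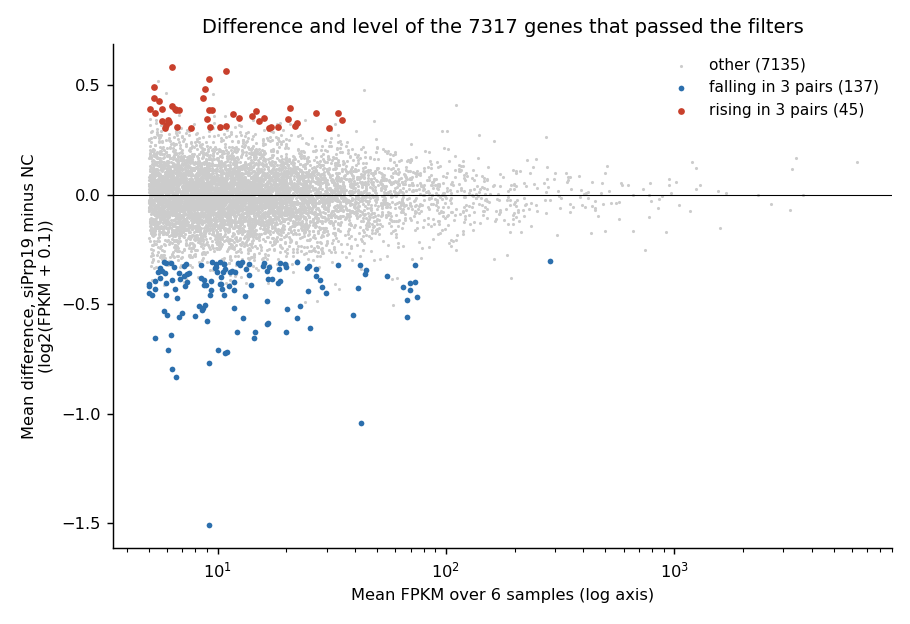
Mean difference between siPrp19 and NC over the 3 pairs in log2(FPKM + 0.1) against the mean FPKM over the 6 samples (log axis) for 7317 genes. The 45 genes higher in all pairs (red) lie between 0.30 and 0.58 and at 35.1 FPKM or below; the lowest blue points reach further from 0 than the highest red ones.

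The members were shorter than most genes in genomic span. The median distance from the first to the last annotated base was 17449 bases, against 30157 for all genes that passed the filters and 41932 for the lower genes. The span was below the median of all genes in 31 of the 45 (68.9%, 53.4% to 81.8%), against 40.1% of the lower genes. Introns accounted for most of this, with a median of 13304 bases of intron, against 24865 and 36712. The transcripts themselves were closer in size. The representative transcript had a median of 2862 bases, against 3084 for all genes and 3732 for the lower genes, and a coding sequence of 1281 bases, against 1341 and 1160. The 3′ untranslated region had a median of 821 bases, against 1067 and 1882. The number of exons differed little, with a median of 8 against 9 for all genes and 8 for the lower ones, and 24 of the 45 members (53.3%, 37.9% to 68.3%) had fewer exons than the median of all genes, against 45.4% of all genes, because of ties, and 56.9% of the lower genes. These intervals cover counting error only and treat genes as independent.

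The 3 shortest genes were ENHO with 2002 bases, CHCHD10 with 2610 and HOXD8 with 3002. ENHO (chr9:34521040-34523041, GRCh38) has 2 exons and codes for a short peptide from 228 bases of coding sequence. The 3 longest were CDK8 with 151135 bases and 13 exons, TLE1 with 105623 bases and 20 exons, and CPLX2 with 87711 bases and 5 exons. COL9A2 had the most exons, 32 within 17327 bases. The mean differences of the 3 shortest were 0.58, 0.33 and 0.37, and those of the 3 longest 0.34, 0.30 and 0.31.

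**Figure D4:**
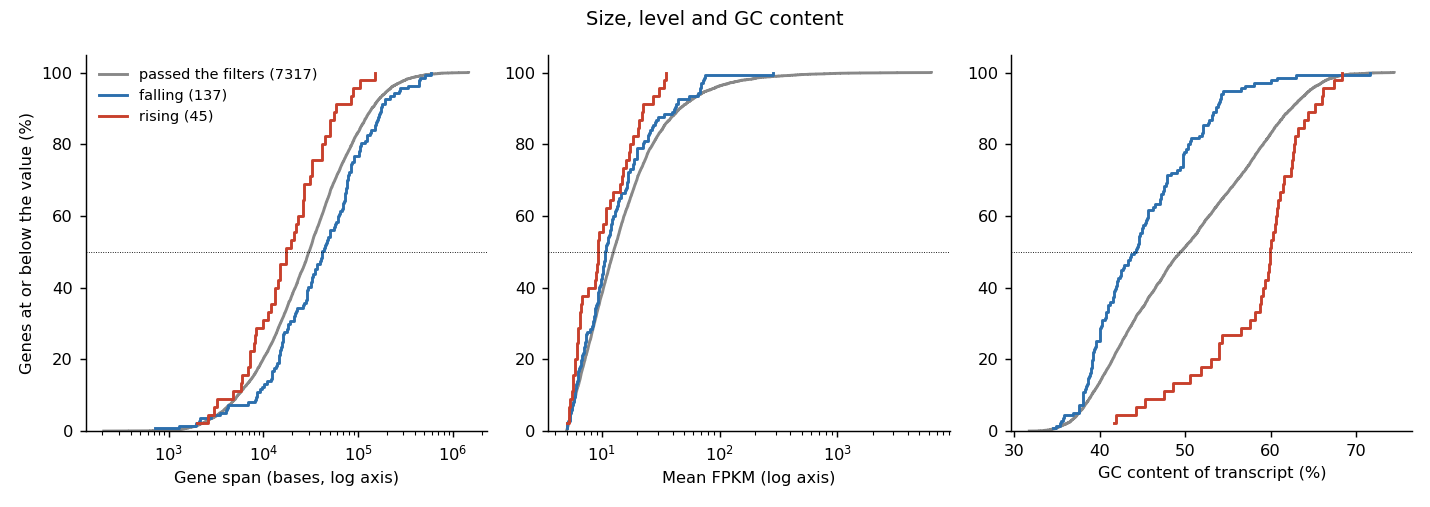
Share of genes at or below a value for the genomic span (bases, log axis), the mean FPKM (log axis) and the GC content of the representative transcript, for all 7317 genes that passed the filters (grey), the 137 lower genes (blue) and the 45 higher genes (red). The red curve crosses 50% at 17449 bases, 9.18 FPKM and 60.0% GC; the blue one crosses it at 41932 bases, 10.7 FPKM and 44.1% GC.

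The members were rich in GC. The median GC content of the transcript was 60.0% in the 45 genes, 49.5% in all genes that passed the filters and 44.1% in the lower genes. It was at or above the median of all genes in 39 of the 45. When all genes were ranked by GC content and divided into 10 bins of equal number, 28 of the 45 members (62.2%) but only 4 of the lower genes fell into the highest 2 bins, and none of the members but 49 of the lower genes into the lowest 2. The 6 members below the median were CXXC4, HIST1H2AC, RFXAP, CDK8, HIST1H2BD and SCN3B, and 5 of these 6 belong to the chromatin group, whose median of 51.2% was the lowest of the 4 groups.

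The siPrp19 minus NC difference moved with GC content across all genes. Its median was -0.08 in the lowest bin and 0.05 in the highest. The pairs differed in this. In pair 3 the median went from -0.13 to 0.18, in pair 1 from -0.10 to 0.02, and in pair 2 from -0.02 to -0.05. Across the genes, which are not independent replicates, the Spearman correlation between the difference and GC content was 0.35 for the mean, and 0.21, -0.02 and 0.63 for pairs 1, 2 and 3. When each pair difference was centred on the median of its GC bin, a step added after seeing the data, 37 genes met the rule, with a median GC content of 53.1%. Of the 45 members, 26 remained and 19 were lost, among them ZDHHC18, CA9, RAB3A, DLG4, CPLX2 and TLE1. The mean differences of the 19 after centring were 0.26 to 0.35, with a median of 0.28, and a limit was missed in the mean or in 1 or more pairs. The largest bin median of the mean difference was only 0.05, and members were selected at 0.3 or more. Mean differences near these sizes therefore had to remain, which does not show that they are independent of GC content. The genes that remained include ENHO, MMP24, PAQR6, NGFR, SCN3B, FOXP4, CELF3, CDK8 and both histone genes. Whether the GC trend came from the libraries or from the cells was not tested.

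**Figure D5:**
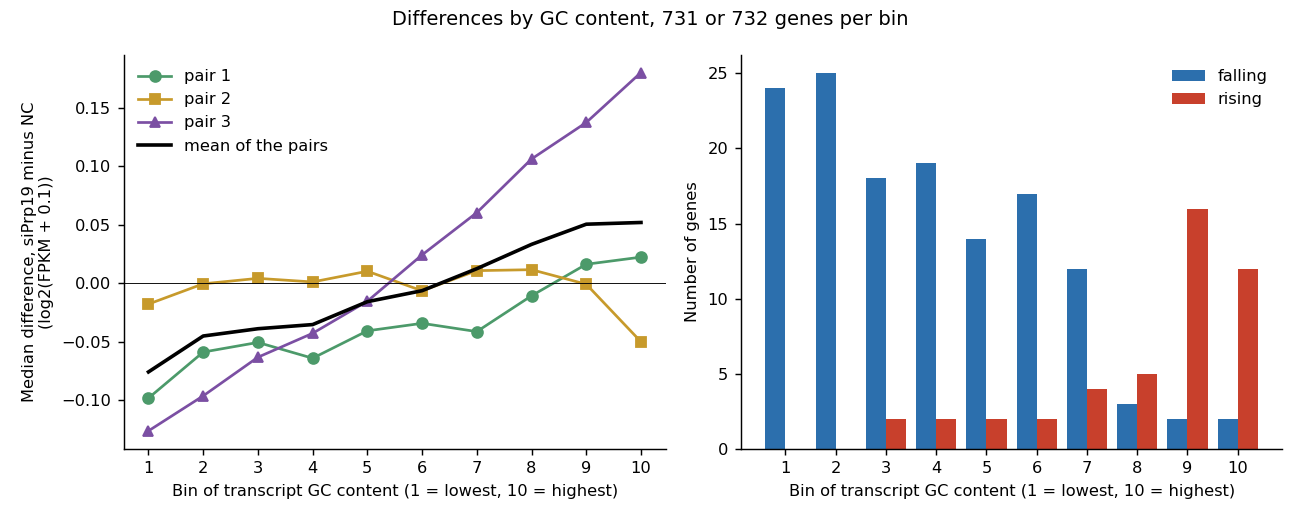
Left, median difference between siPrp19 and NC in log2(FPKM + 0.1) in each of 10 bins of transcript GC content, for each pair and for the mean of the pairs; pair 3 goes from -0.13 to 0.18 and pair 2 stays between -0.05 and 0.01. Right, number of lower (blue) and higher (red) genes in each bin; 28 of the 45 higher genes are in bins 9 and 10.

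Of 40 gene lists, 8 held at least 1 member and 2 held more than 1 (the synapse and histone lists). The share of members on any list, 9 of 45 (20%), was near that of all genes that passed the filters, 1615 of 7317 (22.1%). With 0.615% of all genes meeting the rule, a count of 0 or 1 in any of these lists is not a result about the list. Beside those described, the solute carriers had 1 of 88 (SLC6A2), the ZNF genes 1 of 104 (ZNF691), the RAB GTPases 1 of 33 (RAB3A) and the mitogen-activated and cyclin-dependent kinases 1 of 36 (CDK8). None of the 74 spliceosome components met the rule and 1 met it with the sign turned, with a median difference of 0.04. None of 75 respiratory chain subunits did either way, with a median of 0.06. The lists for the unfolded protein response, interferon-stimulated genes, the cell cycle and cytosolic ribosomal proteins likewise held none either way. None of 11 p53 targets met the rule, and 1 met it with the sign turned.

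The members were spread over the genome. Chromosome 1 held 6, and chromosomes 9 and 19 held 5 each, which is 11.1% of the members on chromosome 9 against 4.41% of all genes that passed the filters. Beside the histone genes, 2 other pairs lay within 2 Mb of each other, JUP and EZH1 on chromosome 17 and ENHO and CA9 on chromosome 9. Between JUP and EZH1 lay 25 genes that passed the filters, with a median difference of 0.08. Exons of 12 members overlapped those of another gene at 1 FPKM or more. The kit named in the labels is not stated to keep the strand, so reads in such parts cannot be told apart. After CA9 the largest overlaps were those of HABP4 with CDC14B (27.0% of the exons), MMP24 with MMP24OS (18.1%), SLC6A2 with AC136621.1 (17.9%, on the same strand), CHCHD10 with MMP11 (16.0%) and MUTYH with TOE1 (14.1%). None of these partners met the rule. MMP24 also shared 3.67% of its exon bases with AL121753.2, an unclassified transcript at 1.45 FPKM with a mean difference of 0.50.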

How the data were processed

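RNA of SK-N-BE(2) cells was sequenced in 3 NC and 3 siPrp19 samples, grouped by their labels. The authors deposited 1 table per sample of FPKM values for 58302 Ensembl genes, with no counts. The submitters' processing notes name HISAT2 2.0.5, featureCounts 1.5.0-p3 and hg38, and the annotation release is not given in the sources used here. Exon lengths of GENCODE 29 turned the FPKM values into whole reads (within 0.02 of a read in all 6 samples) for 95.8% of 37521 genes found there and not at 0 throughout. This gave 19058781 to 24181789 reads on genes per sample, and the fewest reads of any member were 55. Median-of-ratios factors of the deposited values were the same in all 6 samples (1.00736). The values had therefore already been scaled between samples and are not plain fractions of a library total. The same scaling in the limma fit below thus changed nothing between samples. A level is still relative to the rest of the RNA.

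Pair differences are log2(FPKM + 0.1) of siPrp19 minus NC of the same replicate number, which understates changes of low genes. The rule was at least 0.2 in each pair, a mean of at least 0.3, a mean FPKM of at least 5, and GENCODE type protein-coding. The members and all lists were chosen with earlier results of these data known. The rule for genes to name was PRPF19, the 10 members with the largest mean difference, the 10 with the highest FPKM, up to 4 members of each list with at least 2, the 3 longest and 3 shortest, and 3 genes on each side of the limit on the mean. Other members were named by role. Sizes and GC content are those of GENCODE 29 genes and 1 representative transcript each.

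limma 3.58.1 (R 4.3.3; lmFit, eBayes with trend, Benjamini-Hochberg, median-of-ratios scaling, mean FPKM of at least 1) was fitted without a block. Same-numbered samples deviated together from their group means (correlations 0.381, 0.568 and 0.639, and at most 0.0455 for other numbers), so the replicate numbers of the labels pair the samples. The methods of the study call the 3 samples of a group biological replicates, and the labels give only their numbers, so p-values measure the spread between these samples. Alternatives were other pseudocounts, level filters, scalings (TPM, quantile), leaving out replicates, the block, and voom on recovered reads. Other steps used Python 3.11.15, pandas 2.3.3, numpy 2.4.6, scipy 1.17.1 and matplotlib 3.10.9.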

Additional observations from a re-analysis of the deposited data

How the results depend on the processing

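The number of genes higher in all 3 pairs was 45 and depended on the limits chosen. It was 46 with a pseudocount of 0.01, 27 with 1 as pseudocount, 20 when the level had to reach 10 FPKM, 150 when it had to reach 1 FPKM, 402 with no filter on low values, 50 in TPM, 57 after quantile normalization, 37 after GC centring (added after seeing the data) and 3 with a mean difference of at least 0.5. With 1 replicate left out, and so only 2 pairs to satisfy, it was 61 to 106. Without replicate 1, 2 or 3 it was 61, 106 and 91, and 36, 38 and 32 of the 45 were among them. With no replicate block, asking instead that the groups do not overlap, it was 28, of which 20 were among the 45. The share of higher among higher and lower genes was 24.7%, and 26.0% in TPM, 30.8% after quantile normalization and 24.8% after GC centring. The share of members with a level below the median of all genes was 66.7%, and 100% (3 of 3) with a mean difference of at least 0.5. The shares by span and by exon number stayed within their intervals under every alternative tried for them. limma called 0 genes without a block, 0 with any 1 sample left out, 0 with the replicate block, and 1 without trend and with robust estimation. Voom on recovered reads with the replicate block called 964 (362 higher, 602 lower), and the replicate block among genes at 5 FPKM or more called 124. The causes of these changes were not tested. Of the mean differences of 30 named genes, 204 values under an alternative stayed within 1 SD of the 3 pairs, 6 moved further and 0 changed sign. Depth limited the shortest and lowest members most, such as ENHO.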

Other observations

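The same limits were met by 19 of 589 genes of other types at 5 FPKM or more (3.23%), and by another 19 with the sign turned. Of the 19 higher ones, 9 were annotated as lincRNA or antisense. LINC01003 was at 4.31, 4.12 and 4.16 FPKM in NC and 6.41, 5.83 and 6.51 in siPrp19 (mean difference 0.56), with every siPrp19 sample above every NC sample. AL645608.2 and KMT2E-AS1 had mean differences of 0.61 and 0.51. A further 8 of the 19 are shorter than 200 bases, such as MIR25 with 26 to 63 reads per sample and MIR3936 with 2 to 20, and libraries of this kind, made of longer fragments, do not measure mature small RNAs.

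After GC centring, which was added after seeing the data, 11 genes joined that were not among the 45. They include SERPINI1, the serine protease inhibitor neuroserpin, at 5.16, 4.96 and 4.66 FPKM in NC and 8.72, 7.0 and 5.20 in siPrp19 (mean difference before centring 0.46), and THOC7, a subunit of the THO complex of mRNA export, at 15.1, 16.0 and 21.0 FPKM in NC and 19.9, 20.8 and 22.9 in siPrp19 (0.30). TXNIP, the thioredoxin-interacting protein, had the highest level of the 11, with 119, 229 and 35.9 FPKM in NC and 133, 273 and 47.2 in siPrp19 (0.27).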
